A study of Mus musculus with 2 samples.

Results

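S100 proteins are small calcium-binding proteins, and 10 of their genes were followed here through the stomach of the adult mouse. The genes were S100a1, S100a4, S100a6, S100a8, S100a9, S100a10, S100a11, S100a14, S100a16 and S100g, taken by symbol from the 43346 mouse genes of the deposited tables. The study sequenced polyadenylated RNA of more than 200 nucleotides, from which ribosomal RNA had been removed, out of the stomach of C57BL/6J mice, an inbred laboratory strain, at 8 weeks of age. Both libraries belong to a single group with no treatment or mutation named in the labels, and each was made from mixed-sex littermates, given as a pool of males and females. They carry biological replicate numbers 1 and 2 and are separate tissue samples under the same donor record, so the spread between them may be partly technical. Without a second group there is no contrast to test, and what can be asked is which S100 genes had transcripts in this tissue, in what amount, and by how much the libraries differed.

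Each S100 protein is built around a pair of EF-hands, helix-loop-helix motifs whose loop holds a calcium ion, and most members work as dimers. Calcium binding opens a surface with which the dimer grips a target, such as an annexin, a myosin or a membrane receptor. Most of the genes lie in a single cluster that also holds genes of the cornified envelope, the tough outer layer of squamous epithelium. The mouse stomach contains such an epithelium in its forestomach, beside the glandular mucosa.

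The libraries held 51633637 expected read pairs on mouse genes in replicate 1 and 61635982 in replicate 2. Levels are given in TPM, which divides by transcript length and by the library total, and for a 1 kb transcript 3 read pairs amount to 0.0519 TPM in replicate 1 and 0.0437 TPM in replicate 2. Markers of the stomach were present. All 5 pit cell genes, all 5 chief cell genes and 4 of 5 parietal cell genes reached a TPM of 1 in both libraries. Because 48.9% of protein-coding genes passed this limit, the summed levels say more about the tissue. The pit cell genes summed to 72281 TPM in replicate 1 and 70636 TPM in replicate 2. The chief cell genes summed to 103777 TPM in replicate 1 and 152100 TPM in replicate 2, the parietal cell genes to 4982 and 2722. All 13 squamous markers were present too, at a summed 5503 TPM in replicate 1 and 3969 TPM in replicate 2.

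The calcium-binding loop near the end of the protein is what most members share in sequence. The EF-hand pattern of the PROSITE collection, a loop of 12 codons and the codon after it, was found once in each of 7 of the 10 coding sequences and always in the last exon, exon 3. It occurs in 0.996% of the 21782 mouse protein-coding genes with a complete start. The loops are shown for comparison, taken from GENCODE M21 transcripts, with the first codon and the final acidic codon of each loop in capitals.
S100a1: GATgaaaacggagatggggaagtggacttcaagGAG
S100a4: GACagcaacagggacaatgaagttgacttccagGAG
S100a6: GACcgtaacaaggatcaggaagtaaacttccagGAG
S100a8: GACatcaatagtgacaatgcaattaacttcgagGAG
S100a11: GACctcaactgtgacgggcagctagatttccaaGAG
S100a16: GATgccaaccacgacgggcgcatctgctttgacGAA
S100g: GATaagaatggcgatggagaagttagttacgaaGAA
The pattern was not found in S100a10 and S100a14, whose loops are known to have lost calcium-binding residues, nor in S100a9. A missing match says only that these letters were not met. Counted from the start codon as 1, the loop began at codon 58 in S100g and between codons 59 and 67 in the other 6 genes.

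Among the 10 genes 7 reached a TPM of 1 in both libraries. For comparison, 48.9% of the 21474 protein-coding genes did so. The same share is the background for the counts of listed genes at this limit given below. The median of the 10 mean levels was 12.5 TPM, beside 1.15 TPM over all protein-coding genes. The 7 other S100 genes, which are not among the 10, had a median of 0.99 TPM, and 1 of them reached 1 TPM in both libraries. The count and the median of the 10 therefore describe the chosen genes and not the whole family. Together the 10 genes held 1121 TPM in replicate 1 and 992 TPM in replicate 2, a mean of 1057 ± 90.6 TPM (SD, n = 2). That is 0.112% and 0.0992% of the transcripts of these libraries. S100a6 alone held 70.3% of this sum in replicate 1 and 63.8% in replicate 2. S100a6, S100a16, S100a1 and S100a11 together held 97.8% and 96.9%. Of the 9 pairs of neighbours in the order of mean levels 6 did not overlap between libraries. The levels of S100a1 and S100a11 overlapped, and so did those of S100g, S100a9 and S100a8 at the bottom.

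**Figure D1:**
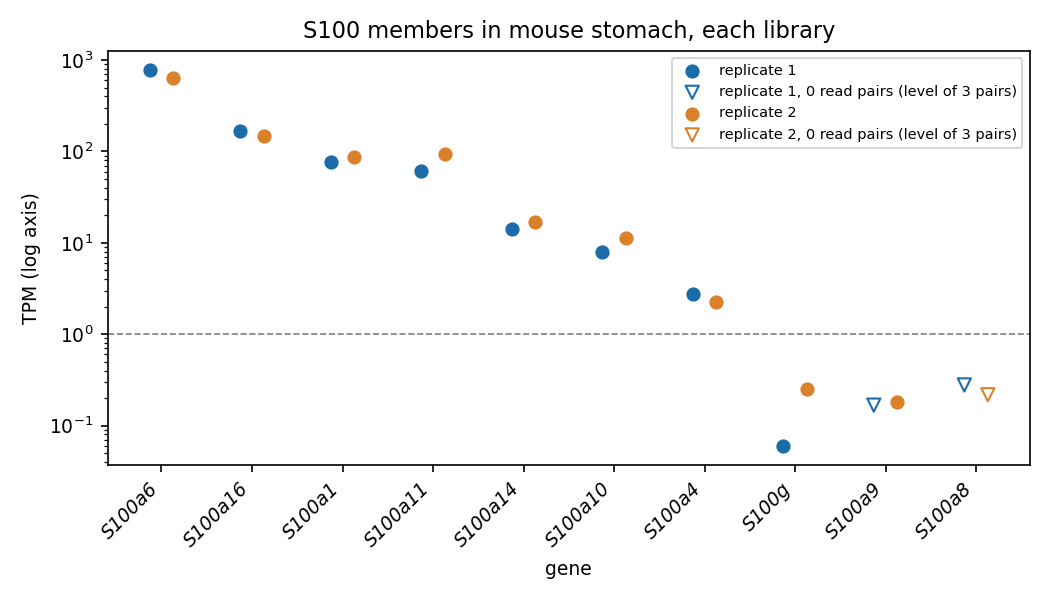
Level of each S100 gene in TPM (log axis) in replicate 1 (blue, left) and replicate 2 (orange, right), ordered by mean. Open triangles stand at the level of 3 read pairs where a library had 0, and the dashed line marks 1 TPM. S100a6 stands at 788 and 633 TPM, and S100g, S100a9 and S100a8 lie below the line.

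S100a6, also called calcyclin, binds annexins and the calcyclin-binding protein encoded by Cacybp. It was the most abundant member, at 788 TPM in replicate 1 and 633 TPM in replicate 2, a mean of 711 ± 109 TPM (SD, n = 2). These levels rest on 23384 and 22940 read pairs. S100a6 ranked 93rd by mean TPM among protein-coding genes and stood 4.49-fold above the next member. Its gene lies on the plus strand of chromosome 3, from 90612882 to 90624181 on mm10. Its known partners ranged widely. Anxa2, an annexin of the inner membrane face, had 141 TPM in replicate 1 and 135 TPM in replicate 2, Anxa11 had 94.96 and 85.48, and Anxa6 had 30.2 and 30.3. Cacybp and Sugt1, a second calcyclin-binding partner, were low, at 1.17 and 1.51 TPM and at 3.05 and 4.96 TPM.

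S100a16, a widely expressed member, followed at 169 TPM in replicate 1 and 148 TPM in replicate 2 (158 ± 14.9, SD, n = 2), ranking 444th. It lies on chromosome 3 from 90537254 to 90543151, plus strand. In both libraries it lay below S100a6 and above S100a1, and the replicates were close.

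S100a1, known in striated muscle as an activator of the sarcoplasmic calcium pump and the ryanodine receptors, had 77.2 TPM in replicate 1 and 87.3 TPM in replicate 2 (82.3 ± 7.13). It lies on chromosome 3 from 90511034 to 90514392, minus strand. Of the 8 genes listed as its calcium-handling partners 5 reached 1 TPM in both libraries. The pump genes were among them: Atp2a1, of fast skeletal muscle, had 45.6 and 59.7 TPM, and Atp2a2, of the heart and other tissues, had 39.8 and 37.1 TPM. The pump inhibitors Sln and Pln had 53.7 and 48.2 TPM and 2.75 and 3.59 TPM. The glycogen phosphorylase gene Pygm had 23.8 and 35.8 TPM. The calcium release channels themselves were low, with 0.69 and 1.07 TPM for Ryr1 and 0.07 and 0.18 TPM for Ryr2. Striated muscle markers were present as well, 7 of 9 at 1 TPM in both libraries, with a summed 865 TPM in replicate 1 and 875 TPM in replicate 2. Which cells carried S100a1 was not tested.

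S100a11, an annexin A1 partner abundant in keratinocytes, had 61.8 TPM in replicate 1 and 93.2 TPM in replicate 2 (77.5 ± 22.3). It lies on chromosome 3 from 93520488 to 93526287, plus strand, in a second part of the cluster. Relative to its level this was the widest gap among the 7 members at 1 TPM, and replicate 2 was the higher library. Anxa1 stood at only 2.64 and 3.0 TPM. The coverage of S100a11 was uneven over its exons, as described with the splice data.

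S100a14, a member of epithelia that binds little calcium, had 14.03 TPM in replicate 1 and 16.75 TPM in replicate 2 (15.4 ± 1.92). It lies on chromosome 3 from 90526856 to 90528837, plus strand. S100a10, the light chain that pairs with annexin A2 at the membrane and does not need calcium to do so, had 7.94 and 11.2 TPM (9.56 ± 2.29). It lies on chromosome 3 from 93555080 to 93564643, plus strand, 28792 bases from S100a11. Its partner Anxa2 was at 141 TPM in replicate 1 and 135 TPM in replicate 2, above its light chain in both libraries. Of 6 genes of the plasminogen system, which the S100a10 and annexin A2 complex recruits at cell surfaces, 4 reached 1 TPM in both libraries. Plaur, the urokinase receptor, had 28.4 and 15.4 TPM and Plgrkt, a plasminogen receptor, had 6.33 and 11.3 TPM. Plg, plasminogen itself, had 0 and 0.06 TPM. Ahnak, a giant scaffold protein bound by the same complex, had 4.19 and 8.44 TPM, and Dysf, the membrane repair protein dysferlin, had 4.31 and 9.32 TPM.

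S100a4, a partner of non-muscle myosin found in fibroblasts and macrophages, had 2.78 TPM in replicate 1 and 2.28 TPM in replicate 2 (2.53 ± 0.354), from 47 and 48 read pairs. It lies on chromosome 3 from 90603771 to 90606045, plus strand. Its target Myh9 had 22.1 and 27.2 TPM. Of the markers of these cell types all 7 fibroblast genes and 8 of 9 macrophage genes reached 1 TPM in both libraries. The fibroblast genes summed to 205 TPM in replicate 1 and 303 TPM in replicate 2, and the macrophage genes to 250 and 179. In whole tissue fewer cells of a type and less RNA per cell cannot be told apart.

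S100a8 and S100a9 form calprotectin, the most abundant protein pair of the neutrophil cytosol, which starves microbes of metal ions and signals through Tlr4 and Ager. S100a8 had 0 read pairs in both libraries, which allows up to 0.279 TPM in replicate 1 and 0.218 TPM in replicate 2. S100a9 had 0 read pairs in replicate 1, which allows up to 0.168 TPM, and 4 pairs or 0.18 TPM in replicate 2. The genes lie on chromosome 3, S100a8 from 90668978 to 90670035 on the plus strand and S100a9 from 90692632 to 90695721 on the minus strand. Neutrophil markers were scarce beside them: Ly6g and Mmp8 had 0 read pairs in both libraries, and 2 of 12 listed genes reached 1 TPM in both. Those were Retnlg, at 15.9 TPM in replicate 1 and 2.55 TPM in replicate 2, and Il1r2, at 1.3 and 2.08 TPM. Of the calprotectin receptors Bsg was abundant, at 373 and 268 TPM, Emb had 5.95 and 2.75 TPM, Tlr4 had 0.42 and 1.29 TPM and Ager 0.54 and 0.39 TPM.

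S100g, the vitamin D-regulated calcium carrier of the small intestine, which works as a monomer, had 0.06 TPM in replicate 1 and 0.25 TPM in replicate 2, from 1 and 5 read pairs. It is the only one of the 10 genes outside chromosome 3, lying on chromosome X from 162961992 to 162964599, minus strand. Of 7 genes of intestinal calcium absorption 2 reached 1 TPM in both libraries. The vitamin D receptor gene Vdr had 1.12 and 1.4 TPM and the exchanger gene Slc8a1 1.00 and 1.23 TPM. The entry channel gene Trpv6 had 0.18 and 0.36 TPM, and Calb1, another calcium carrier, had no read pair in either library. Among 8 enterocyte genes 4 reached 1 TPM in both libraries, close to the 48.9% of all protein-coding genes. They were led by Apoa4 at 24.8 TPM in replicate 1 and 13.5 TPM in replicate 2, while Sis was at 0.

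The other S100 genes added little. S100a13, which leaves cells by a route without a signal peptide, had 25.5 TPM in replicate 1 and 17.4 TPM in replicate 2, and was the only one of 7 to reach 1 TPM in both libraries. S100a7a, a relative of human psoriasin, had 2.58 and 0.82 TPM, S100b, a glial marker, had 0.68 and 1.66 TPM, and S100a3 had 0.92 and 1.06 TPM. S100a5 had 0.08 and 0 TPM, and S100z and S100a2 had no read pairs. With them the family summed to 1150 TPM in replicate 1 and 1013 TPM in replicate 2. The fused-type genes of the same cluster, whose large proteins begin with an S100 domain and take part in cornification, were low too. Rptn had 5.57 and 3.87 TPM and Hrnr 1.3 and 0.61 TPM. Flg2 had 0.04 and 0.03 TPM, Tchh had 0.01 and 0 TPM, and Flg, Crnn and Tchhl1 had no read pairs.

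The libraries differed little in most members. None of the 7 members with a mean of at least 1 TPM was 2-fold or more apart between the libraries, while 7.6% of 11046 protein-coding genes of that level were. For so few members a count of 0 is close to this background. Differences are given as log2 of replicate 1 over replicate 2, on scaled counts, with a 95% interval for counting error alone. On this scale the median protein-coding gene with a mean of at least 5 TPM stood at 0.15, and the median of those with at least 1 TPM at 0.05. S100a6 was higher in replicate 1 at 458 CPM (read pairs scaled to the library size) against 368 CPM in replicate 2, a log2 ratio of 0.32 (interval 0.29 to 0.34), and stayed higher at 0.17 relative to the first median and 0.26 relative to the other. S100a16 stood at 0.13 (0.09 to 0.17), or −0.02 relative to the first median and 0.08 relative to the other, so its direction depends on the scaling. S100a4 stood at 0.25 (−0.35 to 0.87), an interval that includes 0.

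The remaining members were lower in replicate 1. S100a11 had 21.4 CPM in replicate 1 and 32.8 CPM in replicate 2, a log2 ratio of −0.62 (−0.73 to −0.51). S100a10 stood at −0.49 (−0.74 to −0.25), S100a14 at −0.20 (−0.34 to −0.06) and S100a1 at −0.18 (−0.26 to −0.10). The size of the S100a11 difference exceeded that of 77.7% of the protein-coding genes with a mean of at least 1 TPM, and that of S100a10 exceeded 68.3%. For the other 5 members the share was between 22.2% and 49.3%. The median absolute log2 ratio was 0.25 over the 7 members and 0.32 over the genes at that level. For S100g, with 1 read pair in replicate 1 and 5 in replicate 2, the interval ran from −7.60 to 1.13, and no ratio is given for S100a8 and S100a9.

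**Figure D2:**
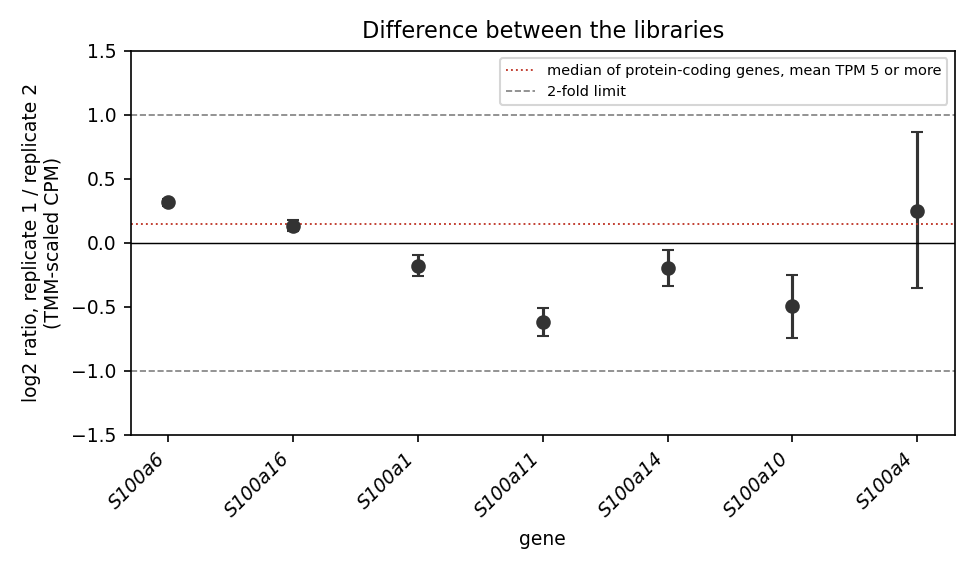
Log2 ratio of replicate 1 over replicate 2 (vertical axis) for the 7 S100 genes with a mean of at least 1 TPM, with 95% counting intervals as bars. Dashed lines mark a 2-fold difference and the dotted line the median of protein-coding genes with a mean of at least 5 TPM, 0.15. All 7 points lie within the dashed lines, S100a11 lowest at −0.62.

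Other gene groups differed between the libraries at the same time, some through few genes and some through most of their genes. The 4 red blood cell genes summed to 613 TPM in replicate 1 and 210 TPM in replicate 2, each of them higher in replicate 1. The smooth muscle markers summed to 7094 TPM in replicate 1 and 4440 TPM in replicate 2, with 6 of 8 genes higher in replicate 1. Of the 13 squamous markers 7 were higher in replicate 1 and 6 in replicate 2, and without Lor and Sprr3 they summed to 2951 and 2772 TPM. Of the 7 fibroblast markers 6 were higher in replicate 2, and without Col1a2 they summed to 158 TPM in replicate 1 and 192 TPM in replicate 2. The part of these groups in the S100 differences was not tested.

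The S100 genes are compact, and 9 of the 10 have 3 exons in their main transcript, the first without coding bases. S100a14 has 4. The lengths and spacing of their introns made it possible to recognise them in the deposited splice junction table, which is on the older mm9 build and sums both libraries. S100a6 was spliced abundantly, with 41010 reads across intron 1 (516 bases) and 20094 across intron 2 (286 bases). S100a16 had 198 reads across its 4576-base intron 1 and 2508 across its 192-base intron 2. S100a1 had 113 and 21 reads, S100a10 205 and 44, S100a4 34 and 45, and S100g 6 and 5. S100a8 and S100a9 had no junction that could be tied to them.

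Neighbouring introns of the same transcript often differed in reads. Of 6 neighbouring pairs in the members with at least 100 reads, 6 were 2-fold or more apart, where 57.0% of 43602 such pairs in all genes were. At 5-fold there were 3 pairs (26.5% in all genes) and at 10-fold 2 pairs (15.8%). S100a1, 1 of the 3, was 5.38-fold apart. Each junction count has 2 parts, not tied to a library. For S100a1 these were 45 and 68 at intron 1 and 20 and 1 at intron 2, so its fold rests on uneven parts. The most uneven were introns 2 and 3 of S100a14, with 332 and 23 reads, a 14.4-fold difference, and the introns of S100a16, 12.7-fold apart.

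S100a11 had few spliced reads for its level. Only 4 reads crossed its 3497-base intron 1 and 10 crossed its 1792-base intron 2, although 3136 read pairs were assigned to the gene in both libraries together. This is 0.446 junction reads per 100 read pairs. Of 1218 genes with 3 exons and at least 100 read pairs, 823 had both introns recognised in the junction table. Among these 823 the median was 12.3, and 1.70% had a lower value. Genes with no reads at an intron are missing from this background, so 1.70% may understate how common low values are. S100a1 had 2.67 per 100 pairs, S100a16 15.03, S100a10 41.6 and S100a6 132. The read pairs were counted on mm10 and the junctions on mm9 by separate steps of the authors, so the ratio compares genes and is not an efficiency.

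The deposited contig table, which gives the coverage signal of stretches with reads, showed the same gene from another side. The contigs over exons 1, 2 and 3 of S100a11 had signals of 0.738, 0.479 and 70.8 in the authors' units. The last was 148-fold above that over exon 2. The signal over exon 2 was low, beside 0.3 for exon 2 of S100g, which had 6 read pairs in both libraries together. The size of the fold is therefore uncertain. A contig can run beyond its exon: those of S100a11 were 217, 208 and 299 bases long, for exons of 66, 149 and 296 bases. Among the 624 of the 823 genes whose 3 exons lay in separate contigs the median fold between the highest and the lowest signal was 4.44. S100a11 exceeded 98.6% of them, and 3.21% were 100-fold or more apart. S100a1 had 17.8, 10.4 and 92.7, an 8.91-fold spread that exceeded 70.4% of these genes. Its contigs over exons 1 and 2 were 388 and 678 bases long for exons of 192 and 154 bases. The extra bases lay almost all before the annotated start at exon 1 and almost all in intron 1 at exon 2. Those signals are therefore averages that take in sequence outside the annotated exons. Over exon 3 the contig had 351 bases for 331. S100a10 had 2.86, 9.53 and 6.46, and S100a4 had 1.49, 1.24 and 1.17, neither with exon 3 highest. S100a6 had 271 over a contig that joined exons 1 and 2 and 134 over exon 3. The joined contig was 1229 bases long for exons of 345 and 162 bases. It took in intron 1 and most of intron 2, so its signal is an average over these as well.

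**Figure D3:**
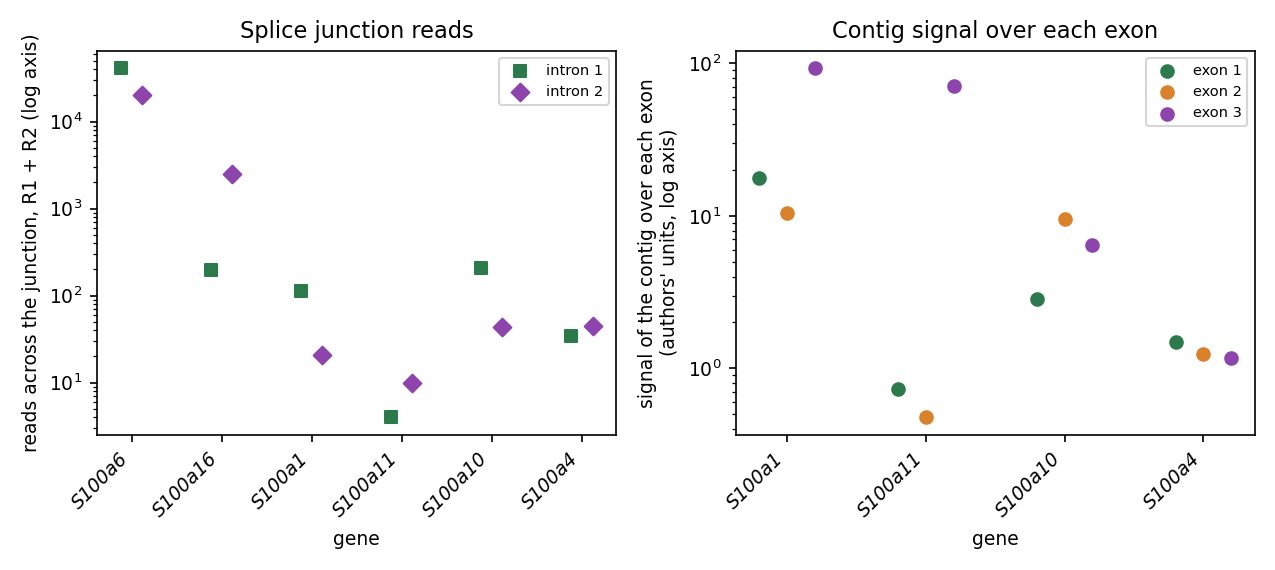
Left, reads across intron 1 (squares) and intron 2 (diamonds) of 6 S100 genes with 3 exons, both libraries summed (log axis). Right, signal of the contigs over exons 1, 2 and 3, which can run into introns, in the authors' units (log axis) for the 4 of these genes whose exons lie in separate contigs. S100a11 has 4 and 10 junction reads, and its exon 3 contig, at 70.8, lies far above its other contigs.

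The coding parts of the S100a11 exons are shown because its reads part at their border, with the calcium-binding loop in capitals.
S100a11 exon 2: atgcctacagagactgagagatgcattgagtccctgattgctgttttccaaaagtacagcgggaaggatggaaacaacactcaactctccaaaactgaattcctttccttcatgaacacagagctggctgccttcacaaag
S100a11 exon 3: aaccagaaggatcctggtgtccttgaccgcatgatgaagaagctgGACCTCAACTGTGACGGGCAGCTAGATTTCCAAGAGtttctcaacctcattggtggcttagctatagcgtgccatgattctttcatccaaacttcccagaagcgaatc
They run from 93524051 to 93524199 and from 93525992 to 93526287 on chromosome 3 (mm10) as whole exons, of 149 and 296 bases. Base composition was 68.2% GC over exon 1, 44.3% over exon 2 and 48.0% over exon 3, and its part in the imbalance was not tested. The tables assign all S100a11 reads to a single transcript, so this imbalance is not visible in its TPM.

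Among the 7 genes at 1 TPM, S100a14 and S100a16 were divided between transcripts, and the others were assigned to a single transcript each. For S100a14 the longer form with 4 exons (ENSMUST00000167598) took 79.0% of the gene's TPM in replicate 1 and 64.4% in replicate 2. The form that skips exon 3 (ENSMUST00000164481) took 21.03% and 35.64%. These shares are uncertain: the posterior standard deviation of its count was 53.7 read pairs on 124 in replicate 1 and 48.8 on 304 in replicate 2. At the junctions that tell these forms apart, 332 reads crossed the 420-base intron of the longer form and 4 crossed the 784-base intron of the skipping form. The 217-base intron 3, also found only in forms with exon 3, had 23 reads. The splice windows show the last 15 bases of exon 2 and, in capitals, the first 15 of the exon that follows.
S100a14 with exon 3: tcagccaatgctgagGATGCCCAAGAATTC
S100a14 without exon 3: tcagccaatgctgagAGCAACTGTGGGTTA
A 255-base first intron, which belongs to a transcript of GENCODE M21 that is not in the deposited table, had 27 reads beside 151 for the 272-base intron of both counted forms.

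S100a16 has several alternative first exons that join the same exon 2. The upstream form (ENSMUST00000098911) took 80.1% of its TPM in replicate 1 and 90.7% in replicate 2. A form starting downstream (ENSMUST00000098910) took 8.19% and 9.28%. Another downstream form (ENSMUST00000107331) took 10.9% in replicate 1 and 0% in replicate 2, which was the main difference between the libraries. The posterior standard deviation of its count was 119 read pairs on 550 in replicate 1 and 29.2 on 0 in replicate 2. For ENSMUST00000098910 it was 159 on 734 in replicate 1 and 167 on 877 in replicate 2. In the junction table the 4576-base intron of the upstream form had 198 reads. The 676-base and 799-base introns of the downstream forms had none. The 2508 reads across intron 2 do not tell the forms apart. The contig over exon 1 of the upstream form had a signal of 6.18, and that joining exons 2 and 3 had 87.8. The joined contig was 1635 bases long for exons of 179 and 784 bases, and began before exon 2. The junctions and contigs therefore do not settle how large the share of the upstream form was.

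**Figure D4:**
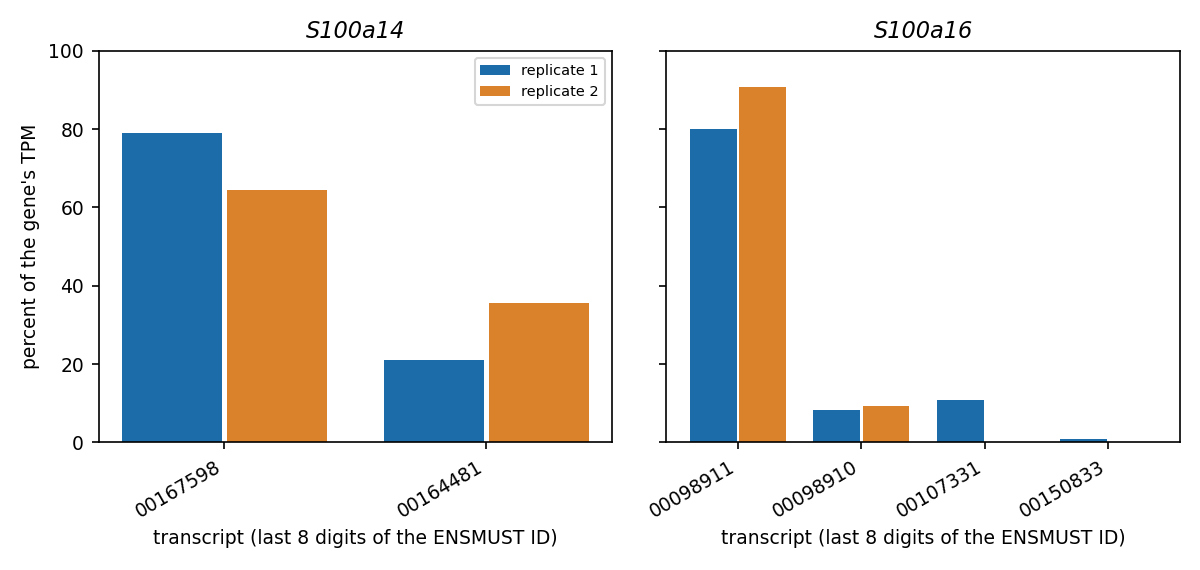
Share of the gene's TPM (percent) taken by each transcript of S100a14 and S100a16 with a level above 0, in replicate 1 (blue, left) and replicate 2 (orange, right). The upstream form of S100a16 takes 80.1% and 90.7%, and the main form of S100a14 takes 79.0% and 64.4%.

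RefSeq gives S100a16 an upstream and a downstream promoter window (GRCm38.p6, plus strand, 250 bases before to 50 after the start), shown because the forms that begin at or near them took unequal shares. Motif matches are in capitals.
S100a16 upstream, chr3:90537004-90537303: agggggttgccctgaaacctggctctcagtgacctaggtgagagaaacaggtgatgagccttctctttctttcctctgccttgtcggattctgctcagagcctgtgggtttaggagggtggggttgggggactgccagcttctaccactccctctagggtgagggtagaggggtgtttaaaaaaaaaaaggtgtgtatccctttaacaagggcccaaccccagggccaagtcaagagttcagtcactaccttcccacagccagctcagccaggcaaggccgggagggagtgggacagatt
S100a16 downstream, chr3:90540896-90541195: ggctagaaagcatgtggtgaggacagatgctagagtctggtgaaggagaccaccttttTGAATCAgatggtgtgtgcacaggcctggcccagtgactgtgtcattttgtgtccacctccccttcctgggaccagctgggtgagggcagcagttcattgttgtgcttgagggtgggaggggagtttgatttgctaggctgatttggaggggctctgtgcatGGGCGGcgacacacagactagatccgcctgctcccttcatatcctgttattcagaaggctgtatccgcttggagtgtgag
Searched on both strands were TATAAA, the TATA box, GGGCGG, the GC box, TGANTCA, the AP-1 site, and TTGCNNAA, a C/EBP site. These occur in 13.6%, 35.7%, 7.81% and 10.8% of 32851 promoter windows of the same length. The downstream window held GGGCGG at −30 and TGANTCA at −192 from the start. The upstream window, at the start of the form assigned the largest share, held none of the motifs.

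Promoter windows were at hand for 8 of the 10 members, all but S100a10 and S100a14. The window of S100a6, the most abundant member, held none of the motifs. S100a11 held GGGCGG 3 times and TGANTCA 2 times. TATAAA stood at −31 in S100a4 and at −30 in S100a8. In S100a9 and S100g it began at position 1, the start itself, and not before it. S100a9 also held GGGCGG at −223 and TTGCNNAA at −236, and S100g held TTGCNNAA on the other strand at −142. These matches are descriptions of the letters only. S100a1 shares its start region with S100a13, which is read in the opposite direction: the gene models lie 42 bases apart and the windows share 204 bases. From this region S100a1 had 77.2 TPM in replicate 1 and 87.3 TPM in replicate 2, and S100a13 had 25.5 and 17.4 TPM. S100a1 was lower and S100a13 higher in replicate 1, with a log2 ratio of −0.18 for S100a1 and 0.56 (0.40 to 0.71) for S100a13. The S100a1 window is shown, in the direction of S100a1 (minus strand). It held none of the motifs.
S100a1, chr3:90514281-90514580: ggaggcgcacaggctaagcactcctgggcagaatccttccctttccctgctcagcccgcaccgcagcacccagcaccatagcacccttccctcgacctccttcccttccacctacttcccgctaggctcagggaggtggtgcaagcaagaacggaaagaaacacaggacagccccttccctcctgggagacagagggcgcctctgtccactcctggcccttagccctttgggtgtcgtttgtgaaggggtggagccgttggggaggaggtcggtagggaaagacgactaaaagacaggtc

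Neighbours on the chromosome differed widely in level. From S100a1 to S100a9 the 7 members of the first part of the cluster span 184688 bases and cover the whole range, from S100a6 to S100a8. S100a11 and S100a10 follow after a gap of 2824766 bases. The members are far enough apart in sequence for reads of 76 bases to be told apart. The coding sequences, 237 to 372 bases long, were 43.4% to 60.6% identical over 45 pairs, with a median of 50.9%. S100a4 and S100a6 were the closest pair, and the longest run shared by any pair of transcripts was 19 bases. The posterior standard deviation of the gene count was at most 0.45 read pairs in every member. It was far larger for the main transcripts of S100a14 and S100a16, whose reads are divided between forms of the same gene.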

How the data were processed

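Expected counts per gene and transcript, deposited by the authors as a table per library, came from alignments on mm10 with GENCODE M4 models, per the README beside the tables. Aligner and quantifier versions were not found in the labels, headers or README. The authors also deposited TPM, FPKM, the percent of each transcript in its gene, and, as a score, how far the posterior count varied (a standard deviation), per the file headers. Splice junction counts and contig signal were deposited on mm9, and as nothing assigns the R1 and R2 parts of a junction count to a replicate, they were summed. Reads were strand-specific pairs of 76 nucleotides with spike-ins, per the labels. Symbols and positions came from GENCODE M21 on mm10, and 42462 of 43346 gene IDs (98.0%) matched.

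Ratios used expected counts rounded to whole numbers, with TMM scaling and a prior count of 2 in edgeR 4.0.16 (R 4.3.3). DESeq2 1.42.0 gave alternative size factors. Rows without a mouse gene stayed out of library sizes. Intervals are exact conditional binomial (Clopper-Pearson) at 95%, and upper limits are set at 3 read pairs. Both cover counting error only, since without molecular identifiers reads are no independent molecules. The ratio step was tested on simulated data with known folds and counting error alone. That test does not cover the wider spread between these libraries. Across 16112 genes the libraries differed beyond sampling noise (chi-square 274 per degree of freedom) and were kept as separate replicates.

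Junctions were tied to a gene only where at least 2 had the lengths and spacing of its introns, and no coordinates were converted between builds. Loops and coding identity came from M21 transcripts with Biopython 1.88. A planned comparison of protein sequences was not run. Members, gene lists and alternatives were chosen with earlier results of these data known. All 10 members and the rest of the family are named, and from every other list up to 6 genes of highest mean TPM and up to 2 below 1 TPM could be named. Cacybp, Sugt1 and Anxa1 fall outside this rule and were named, as known partners of members, after their values were seen.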

Additional observations from a re-analysis of the deposited data

How the results depend on the processing

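No paired analysis was possible because the libraries form a single group. With the 2 most abundant genes, Clps and Pgc, taken out of the library total, the summed level of the 10 genes was 1662 TPM in place of 1057, and the same choice raised the mean of each of the 7 genes above 1 TPM. Without replicate 1 the sum was 992 TPM and without replicate 2 it was 1121 TPM. Posterior mean TPM, rescaled FPKM and mouse genes alone left the sum within the spread between libraries. The count of 7 genes at 1 TPM stayed the same under each alternative but a limit of 5 TPM, which gave 6. The count of genes 2-fold apart was 0 under each alternative. Leaving Clps and Pgc out of that first count, and centring on the median gene of at least 1 TPM, were chosen after seeing the data. Of 70 alternative log2 ratios 69 kept their sign. The exception was S100a16, at −0.02 when centred on the median gene of at least 5 TPM. Some alternatives could hardly change a ratio, so a kept sign says little: prior counts of 0.5 and 5 left S100a6 at 0.32. Over all results 20 of 145 alternatives moved beyond the spread between libraries or the counting interval. S100a11 ranged from −0.77 to −0.59 and S100a6 from 0.17 to 0.34. Counts of 0 to 5 read pairs limit what can be said of S100a8, S100a9 and S100g.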
